A study of Mus musculus with 6 samples.

Results

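The promoters of 132 genes for splicing factors and other nuclear RNA-binding proteins were followed in ATAC-seq profiles, which count the insertions of the transposase Tn5 into open DNA. The genes were chosen by symbol: SR proteins (Srsf), heterogeneous nuclear ribonucleoproteins (hnRNPs, Hnrnp), proteins of the U snRNPs (Snrp), the branch point and 3′ splice site factors Sf1, Sf3a, Sf3b and U2af, and the Prpf, Rbm, Ddx and Dhx families. The cleavage and polyadenylation factors Cpsf and Cstf and the regulators Celf, Mbnl, Ptbp, Rbfox and Khdrbs completed the set. Because the rule goes by symbol, the set also takes in helicases that act elsewhere, such as Ddx6. Rbm8a and Ddx58 were left out by name. Symbols of this kind were annotated to 159 open regions of 143 genes. For each gene the most accessible region with its centre within 1000 bp of the transcription start site was taken as its promoter, which gave 132 of the 9459 genes for which the same rule finds a region in the whole table. The remaining 11 genes had only regions farther out, which are counted at the end.

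Stable lines of NIH3T3, an immortal mouse fibroblast line, were compared, with 3 libraries of each of 2 genotypes. In both the T3H48 hammerhead ribozyme, an RNA that cuts itself, was inserted into intron 3 of Actg1, the cytoplasmic gamma-actin gene. One genotype carries the active ribozyme (T3H48-aHHR) and the other the inactive form (T3H48-iHHR), so the inactive line is a control for the insertion and not an unmodified cell. No sample without an insertion entered the comparison, and neither ribozyme cutting nor RNA levels were measured here. The labels do not state how many lines or clones stand behind each genotype, called a line below, or whether its libraries are separate cultures. The p-values therefore describe the spread among these libraries, which may be technical, and an effect of the ribozyme and a difference between the stable lines themselves cannot be told apart.

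The spliceosome removes introns from pre-mRNA. Sf1 and U2af mark the branch point and the 3′ splice site. U snRNPs, most of them built on a ring of Sm proteins, assemble on the intron. Prpf proteins and the DEAH-box helicases of the Dhx family drive the remodelling of the complex. SR proteins and hnRNPs bind the transcript and promote or block the use of nearby sites, and Celf, Mbnl, Ptbp, Rbfox and Khdrbs proteins do so in particular tissues. Cpsf and Cstf proteins belong to the machinery that cuts the 3′ end before the poly(A) tail is added. DEAD-box helicases of the Ddx family act in splicing, ribosome assembly, export and decay. Most of these genes are active in every dividing cell, fibroblasts included.

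Each library held 6433944 to 6548535 normalised reads over 52957 regions, and the deposited values are already scaled between libraries. Reads before scaling were estimated from gaps in the whole numbers at 3710000 to 6840000 for active libraries and at 7330000 to 8960000 for inactive ones, so the active libraries were the shallower ones. Of 12 fibroblast marker genes, 9 had an open promoter, with sums of 2501 to 2670 normalised reads in active and 3090 to 3187 in inactive libraries. Of these 9, 6 were lower and 2 higher (Twist1 and Col1a2), and Col3a1 did not pass. Of 6 epithelial, 5 immune, 4 neural and 3 endothelial markers, only Krt8 and Map2 had a region at the promoter. Krt8 was higher in the active line, at 147 ± 20.8 against 85 ± 6.08 normalised reads (mean ± SD, n = 3 each, as throughout). Map2 was lower, at 158 ± 33.9 against 199.7 ± 6.66. The part of these shifts in the results below was not tested.

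The promoter sequences at the largest changes, and at 2 falls that went against or beyond their surroundings, are shown first. They are RefSeq windows on GRCm38.p6, from 250 bases before to 50 bases after an annotated start, on the strand of the gene. Of the 132 genes, 109 had such a window. The open regions themselves are on mm39, and positions were not converted between both builds. Capitals mark matches, on either strand, to any of 10 short motifs: CCAAT (NFY), GGGCGG (SP/KLF), CCGGAAG (ETS), GCATGCG (NRF1 core), TGACGT (CRE core), AAGATGG (YY1 core), TCTCGCG (ZBTB33 core), CACGTG (E-box), the TATA box letters TATAAA, and TGANTCA, read by AP-1 factors. Rbm43 had the largest fall and has windows for 2 annotated starts, Rbm28 had the largest rise, Ddx10 the next largest fall, Hnrnpu fell in a window with a median just above 0, and Snrpg fell further than its window.
Rbm43, upstream start, chr2:51935114-51935413, minus strand: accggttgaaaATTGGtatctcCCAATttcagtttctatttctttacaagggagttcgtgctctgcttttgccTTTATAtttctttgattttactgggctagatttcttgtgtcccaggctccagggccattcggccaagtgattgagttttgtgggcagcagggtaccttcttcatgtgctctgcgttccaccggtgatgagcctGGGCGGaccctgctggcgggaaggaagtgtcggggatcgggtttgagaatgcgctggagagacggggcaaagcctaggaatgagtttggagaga
Rbm43, downstream start, chr2:51934595-51934894, minus strand: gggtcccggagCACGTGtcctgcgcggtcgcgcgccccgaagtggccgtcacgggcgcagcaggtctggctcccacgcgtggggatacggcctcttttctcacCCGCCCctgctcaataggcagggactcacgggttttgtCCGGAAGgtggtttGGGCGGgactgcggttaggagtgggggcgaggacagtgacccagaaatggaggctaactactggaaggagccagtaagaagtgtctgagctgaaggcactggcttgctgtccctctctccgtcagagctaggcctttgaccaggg
Rbm28, chr6:29164675-29164974, minus strand: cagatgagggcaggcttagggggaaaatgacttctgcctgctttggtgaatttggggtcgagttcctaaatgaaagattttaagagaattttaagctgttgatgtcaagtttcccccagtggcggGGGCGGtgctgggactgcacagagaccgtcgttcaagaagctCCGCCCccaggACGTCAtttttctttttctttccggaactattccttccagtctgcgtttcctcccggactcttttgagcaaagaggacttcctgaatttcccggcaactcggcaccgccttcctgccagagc
Ddx10, chr9:53248063-53248362, minus strand: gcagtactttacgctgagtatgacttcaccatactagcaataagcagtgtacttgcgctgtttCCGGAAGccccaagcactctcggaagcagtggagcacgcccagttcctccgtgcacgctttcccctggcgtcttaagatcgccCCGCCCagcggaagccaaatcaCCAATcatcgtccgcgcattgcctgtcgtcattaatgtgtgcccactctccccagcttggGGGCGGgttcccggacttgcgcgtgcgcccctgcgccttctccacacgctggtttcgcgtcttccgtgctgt
Hnrnpu, chr1:178337766-178338065, minus strand: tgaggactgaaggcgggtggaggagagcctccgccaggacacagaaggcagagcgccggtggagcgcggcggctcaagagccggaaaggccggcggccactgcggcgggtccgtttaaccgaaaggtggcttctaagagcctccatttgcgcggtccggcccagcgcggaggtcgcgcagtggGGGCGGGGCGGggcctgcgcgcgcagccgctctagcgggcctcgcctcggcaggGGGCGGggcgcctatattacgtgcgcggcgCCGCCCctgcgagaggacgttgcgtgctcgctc
Snrpg, chr6:86371290-86371589, plus strand: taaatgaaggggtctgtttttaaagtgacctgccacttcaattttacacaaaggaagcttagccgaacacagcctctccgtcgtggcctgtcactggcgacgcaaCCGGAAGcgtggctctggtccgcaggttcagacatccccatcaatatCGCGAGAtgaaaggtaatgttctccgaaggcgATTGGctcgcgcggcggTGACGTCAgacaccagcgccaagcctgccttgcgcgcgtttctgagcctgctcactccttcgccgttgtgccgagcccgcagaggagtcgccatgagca

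The windows differ in content. The downstream Rbm43 window holds 2 SP/KLF boxes, an ETS match and an E-box in 63.7% G and C, whereas the upstream one has CCAAT, SP/KLF and TATA letters in 50.7%. The Hnrnpu window holds SP/KLF boxes alone, 4 matches of which a pair overlaps, in 72.7% G and C. In Snrpg an ETS match, 2 overlapping CRE core matches, a ZBTB33 core and CCAAT letters stand in 57.3% G and C. A match describes letters and is not evidence of binding.

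Across the set, more promoters were less accessible in the active line than were more accessible. Of 132 promoters, 66 fell (50%) and 22 rose (16.7%), while 44 did not pass the threshold (limma on log2(value + 1), Benjamini-Hochberg adjusted p under 0.05 over all 51253 tested regions). In the promoters of all genes taken by the same rule, 37.7% were lower and 21.2% higher (58.9% in either direction), and over all tested regions 29.2% were lower and 30.9% higher (60.1% in either direction). The median log2 ratio, the fold change of active over inactive on the log2(value + 1) scale, was -0.17 in the set and -0.11 in all gene promoters. The active libraries lay wholly below or above the inactive ones in 89 of 132 promoters, of which 66 lay below and 23 above. That compares with 61.2% of all gene promoters (39.3% below, 21.9% above) and 62.3% of all regions (30.5% below, 31.8% above). Among the called promoters, 62 of 66 falls and 21 of 22 rises were free of overlap. Where separation is mentioned below for a called gene, it is therefore nearly given by the call and adds little to it.

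Nearly all of these differences were small. Among the falls the median log2 fold change was -0.32, which is 1.25-fold, and 60 of 66 were under 1.5-fold. Among the rises the median was 0.35, or 1.28-fold, and 21 of 22 were under 1.5-fold. Rbm43 alone changed by at least 2-fold, whereas 4.86% of all gene promoters and 20.2% of all regions did. The set also held strongly open promoters, with a median level of 317.4 normalised reads against 254.5 in all gene promoters and a range from 36 at Rbm43 to 1127 at Ddx54.

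**Figure D1:**
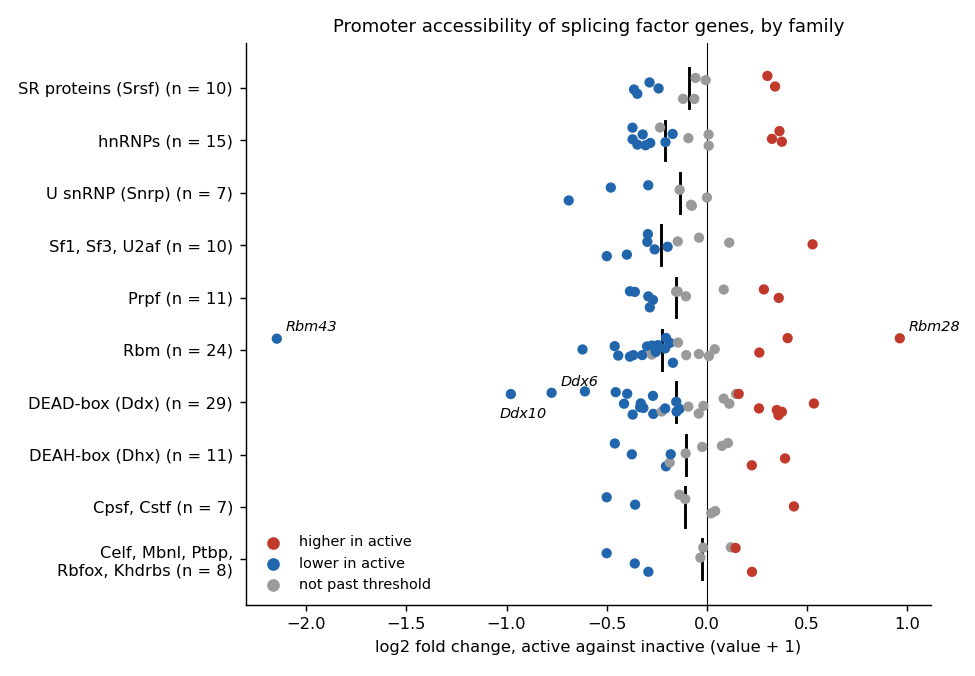
Log2 fold change (active against inactive, on the value + 1 scale) of the 132 promoters by family, one point per gene, with a black bar at the family median. Rbm43 stands alone at -2.15, and Rbm28 at 0.96 and Ddx10 at -0.98 mark the next largest changes.

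Among the SR proteins, which bind exonic enhancers through RNA recognition motifs and recruit the splicing machinery, 4 of 10 promoters fell and 2 rose. Srsf1, the founding member of the family, read 273, 268 and 297 normalised reads in the inactive and 204, 240 and 208 in the active libraries (log2 ratio -0.36, SE 0.08, limma adjusted p = 2.09e-04). Srsf3, its smallest member, read 650, 689 and 675 in the inactive and 554, 525 and 505 in the active libraries (log2 ratio -0.35, SE 0.06, limma adjusted p = 1.13e-06). In both genes every active library lay below every inactive one. Srsf5 went the other way, from 369, 399 and 385 to 464, 532 and 468 (log2 ratio 0.34, SE 0.07, limma adjusted p = 2.02e-05), again without overlap.

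Srsf9 rose from 166 ± 20 to 204.7 ± 20.3 normalised reads (log2 ratio 0.30), a call that was lost without active replicate 2 (0.22) or inactive replicate 1 (0.20) and in limma without trend. Limma without trend here also means without robust fitting. The most accessible promoter of the family, that of Srsf7, had 658.7 ± 39.5 (active) against 714.3 ± 23.2 (inactive) and missed the threshold (limma adjusted p = 0.0557), although it passed without active replicate 2 (-0.16). Srsf4 gave the same mean in both lines, 336 ± 36.4 against 336 ± 10.4.

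In the hnRNP family, abundant proteins that coat nascent transcripts, 8 of 15 promoters fell and 3 rose. Hnrnpu, which also anchors chromatin as a scaffold protein, read 401, 410 and 402 normalised reads in the inactive and 304, 290 and 346 in the active libraries (log2 ratio -0.37, SE 0.07, limma adjusted p = 1.91e-05). Hnrnph1, which binds runs of G, fell by the same factor, from 507, 498 and 570 to 423, 380 and 414 (limma adjusted p = 4.45e-06). The 3 rises were Hnrnpa0, the most accessible promoter of the family, and the paralogues Hnrnpd and Hnrnpdl, which bind AU-rich RNA. Hnrnpa0 read 752, 716 and 781 in the inactive and 928, 1025 and 966 in the active libraries (log2 ratio 0.38, SE 0.05, limma adjusted p = 2.22e-08). Hnrnpdl read 749, 659 and 732 against 870, 1009 and 877, with a log2 fold change of 0.36. None of these 5 comparisons had overlapping libraries. A second, more accessible Hnrnpu region was centred 1073 bp from the start, outside the limit. It did not pass, at 361 ± 2.65 (active) against 399.7 ± 17.2 (inactive) (log2 ratio -0.15, limma adjusted p = 0.0527).

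The U snRNP proteins had 3 falls and 0 rises among 7 promoters. All 3 falls kept their call under array weights and with each library left out. Snrpd1, a protein of the Sm ring, read 200, 173 and 199 normalised reads in the inactive and 118, 113 and 122 in the active libraries, 1.62-fold lower (log2 ratio -0.69, SE 0.10, limma adjusted p = 1.39e-07). Snrpg, a further Sm protein, read 233, 238 and 245 against 164, 173 and 176, 1.4-fold lower (log2 ratio -0.48, SE 0.09, limma adjusted p = 6.39e-06). Both promoters were separated completely between the lines. Snrpd3, the most accessible of the family, overlapped between the lines, at 560.3 ± 69.5 (active) against 612.7 ± 28.9 (inactive) (limma adjusted p = 0.0745), and it passed without active replicate 2 (-0.21).

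Of the 10 branch point and 3′ splice site factors, 6 fell and 1 rose. Sf1, which recognises the branch point, had the most accessible promoter of the group and read 955, 1058 and 1019 normalised reads in the inactive against 840, 827 and 804 in the active libraries (log2 ratio -0.29, SE 0.05, limma adjusted p = 1.36e-06). The U2af heterodimer fell at both genes. U2af1, which reads the AG at the intron end, went from 529.3 ± 27.3 to 442 ± 26.1 (-0.26) and U2af2, which binds the pyrimidine tract, from 477.3 ± 4.51 to 417 ± 17.1 (-0.20), and both calls were lost in limma without trend.

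The SF3B complex clamps the branch site, and its genes differed in direction. Sf3b3 fell from 96, 86 and 104 to 65, 81 and 57 normalised reads (log2 ratio -0.50, SE 0.14, limma adjusted p = 0.00224). Sf3b2 fell from 423.7 ± 27.3 to 321 ± 17.8 and Sf3b1, which holds the branch helix, from 251 ± 9.17 to 204.3 ± 12.7 (-0.30). Sf3b6, the subunit next to the branch adenosine, rose from 151, 151 and 167 to 239, 226 and 213, 1.45-fold (log2 ratio 0.53, SE 0.09, limma adjusted p = 2.85e-06). The active libraries lay apart from the inactive ones in all 4 genes.

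In the Prpf family 5 of 11 promoters fell and 2 rose. Prpf8, the protein at the catalytic centre of the spliceosome, read 237, 261 and 240 normalised reads in the inactive and 198, 180 and 187 in the active libraries (log2 ratio -0.38, SE 0.08, limma adjusted p = 1.43e-04). Prpf19, a ubiquitin ligase of the spliceosome, read 407, 451 and 429 against 334 in every active library (-0.36). Prpf40b, associated with the U1 snRNP, rose from 342.7 ± 10.02 to 418.3 ± 26.3 (0.29, limma adjusted p = 3.49e-04). Prpf39 rose from 116.7 ± 3.21 to 150.7 ± 18.2 (0.36).

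The Rbm family had the extremes of the whole set, with 15 of 24 promoters lower and 3 higher. The falls numbered 10 without inactive replicate 2, and limma without trend gave 6 falls and 2 rises. At Rbm43, on chromosome 2 (51824622 to 51825219 on mm39, centred 254 bp from the start site), the inactive libraries read 52, 64 and 62 normalised reads and the active ones 11, 12 and 15. That is a fall of 4.68-fold (log2 ratio -2.15, SE 0.22, limma adjusted p = 6.2e-11), from a weak to a barely detected region. Of 6 other regions within 100 kb of it, 3 were higher and 3 lower, from -0.63 to 2.56, so the surroundings did not move one way. The median of the other regions in its 10 Mb window was -0.24.

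Rbm28, a nucleolar protein also found in spliceosomal snRNPs, lay at the other end. Its promoter on chromosome 6 (29164263 to 29165030) read 114, 128 and 132 normalised reads in the inactive and 234, 260 and 238 in the active libraries, 1.96-fold higher (log2 ratio 0.96, SE 0.09, limma adjusted p = 1.08e-11). Here the surroundings rose as well: 28 of 30 other regions within 250 kb were higher and 0 lower, with a median of 0.88. Rbm7, the RNA-binding subunit of the NEXT complex that hands RNA to the nuclear exosome, fell from 240, 231 and 245 to 159, 173 and 135 (-0.62, limma adjusted p = 2.56e-07). Around Rbm7, 17 of 19 regions within 250 kb were lower and 0 higher.

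Rbm19, a factor of ribosome assembly, rose from 218.3 ± 8.96 to 290.3 ± 33.1 normalised reads (log2 ratio 0.40, limma adjusted p = 5.71e-05). Rbm15, of the complex that methylates adenosine in mRNA, was the most accessible Rbm promoter and was not separated between the lines (1018 ± 46.2 against 1046 ± 34.6, limma adjusted p = 0.471). Rbm5 did not pass either (227.7 ± 10.02 against 252 ± 20.7). Rbm3, a cold-induced protein, fell from 249 ± 12.5 to 208.7 ± 11.9, a call lost without inactive replicate 3 (-0.22). Rbm39, a partner of U2af2, fell from 574 ± 34.6 to 505.3 ± 33.2, a call lost without active replicate 3 (-0.13) or inactive replicate 2 (-0.14). Both calls were also lost in limma without trend.

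**Figure D2:**
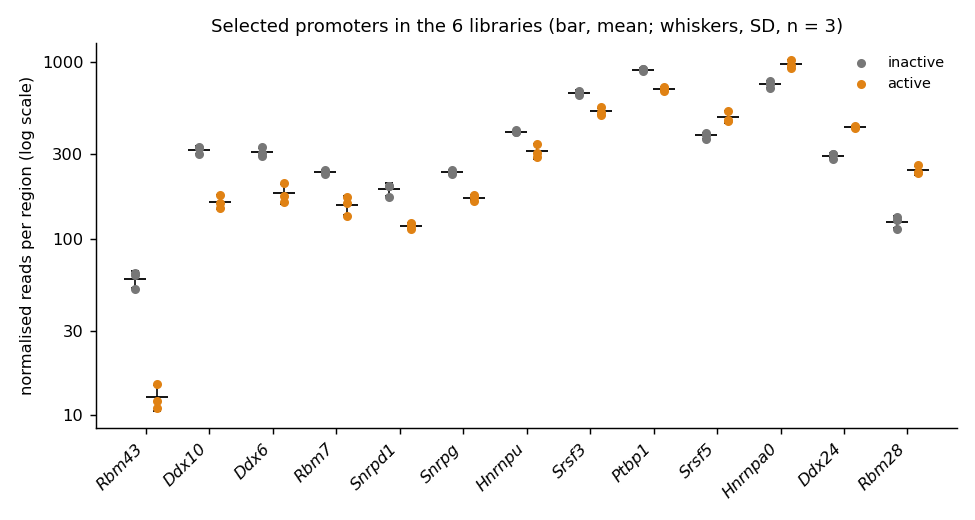
Normalised reads per promoter region (log axis) in each library for 13 promoters, grey for inactive and orange for active, with the mean as a bar and the SD as whiskers (n = 3). The 13 were picked among the called promoters, nearly all of which are separated between the lines. The gap is widest at Rbm43, where the active libraries sit between 11 and 15 and the inactive ones between 52 and 64.

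The DEAD-box helicases were the largest family, with 16 of 29 promoters lower and 6 higher (10 and 4 in limma without trend). Ddx10, a ribosome assembly helicase, read 300, 331 and 328 normalised reads in the inactive and 149, 177 and 160 in the active libraries, 1.97-fold lower (log2 ratio -0.98, SE 0.08, limma adjusted p = 4.29e-13). Ddx6, which represses translation and promotes decapping in P-bodies, read 329, 295 and 305 against 175, 207 and 162, 1.71-fold lower (log2 ratio -0.77, SE 0.09, limma adjusted p = 3.81e-10). Both lie on chromosome 9, where 7 of 9 regions within 250 kb of Ddx10 and 15 of 23 around Ddx6 were lower, with 0 and 2 higher. The libraries of both lines were apart at each gene.

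The rises in this family were led by Ddx24, a nucleolar helicase, which went from 283, 301 and 300 normalised reads to 421, 428 and 433 (log2 ratio 0.54, SE 0.07, limma adjusted p = 6.56e-09), and by Ddx51 (146.7 ± 18.6 to 189.7 ± 4.51, 0.38). Ddx54, the most accessible promoter of the whole set, read 983, 923 and 1060 in the inactive and 1290, 1276 and 1232 in the active libraries (log2 ratio 0.36, SE 0.05, limma adjusted p = 1.11e-08). The paralogues Ddx5 and Ddx17, helicases of splicing and transcription, differed. Ddx5 fell from 746, 773 and 779 to 557, 604 and 565 (-0.41, limma adjusted p = 1.17e-08). Ddx17 had 401.7 ± 8.14 (active) against 360.7 ± 37.0 (inactive), which overlapped. Its call (0.16, limma adjusted p = 0.0465) was lost without active replicate 1 (0.14) or 3 (0.17), without inactive replicate 1 (0.08) or 2 (0.17), with the replicate block and in limma without trend.

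Ddx3x, a helicase of translation initiation, fell from 1071 ± 48.2 to 974 ± 34.1 normalised reads (log2 ratio -0.14, limma adjusted p = 0.0103). This call did not hold without active replicate 3 (-0.11), without replicate 1 (-0.12) or 3 (-0.12) of the inactive line, or in limma without trend.

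Of the 11 DEAH-box helicases 4 fell and 2 rose. Dhx36, which unwinds G-quadruplexes, fell from 209, 202 and 204 to 165, 147 and 136 normalised reads (log2 ratio -0.46, SE 0.09, limma adjusted p = 5.37e-05), and Dhx40 from 144 ± 12.5 to 110.7 ± 4.51 (-0.37). Dhx37, a helicase of small ribosomal subunit assembly, rose from 240, 233 and 283 to 320, 336 and 333 (log2 ratio 0.39, SE 0.08, limma adjusted p = 3.59e-05). Dhx15, which disassembles spent spliceosomes, rose from 326 ± 18.3 to 381.3 ± 23.0 (0.23), a call lost in limma without trend. The values of Dhx9, a nuclear helicase of double-stranded RNA, overlapped (323.3 ± 24.8 (active) against 328.7 ± 29.2 (inactive)), as did those of Dhx35, the most accessible of the family. With quantile normalization the family had 3 rises and 2 falls in place of 2 and 4, without active replicate 3 it had 2 falls, and limma without trend gave 1 rise and 2 falls.

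The 7 promoters of 3′ end factors included 2 falls and 1 rise. Cstf2t, an intronless paralogue of Cstf2, which binds the GU-rich element behind the cleavage site, fell from 293, 323 and 298 to 240, 184 and 225 normalised reads (log2 ratio -0.50, SE 0.08, limma adjusted p = 3.08e-06). Cstf2 itself overlapped between the lines, at 322.3 ± 15.6 (active) against 315 ± 47.1 (inactive). Cpsf7, of the factor that binds UGUA sites, fell from 511.7 ± 21.8 to 399.7 ± 30.6 (-0.36). Cpsf2, a partner of the endonuclease, rose from 217, 220 and 215 to 292, 302 and 289 (log2 ratio 0.44, SE 0.08, limma adjusted p = 5.59e-06). Cstf3, the most accessible of the group, missed the threshold (509.7 ± 11.4 against 549 ± 8.54, limma adjusted p = 0.101), although its libraries did not overlap.

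Among 8 promoters of regulated-splicing factors 3 fell and 2 rose, and the median log2 fold change of the group, -0.02, turned to 0.01 with quantile normalization. Ptbp1, the repressor that binds pyrimidine tracts, read 891, 920 and 909 normalised reads in the inactive and 725, 686 and 709 in the active libraries (log2 ratio -0.36, SE 0.05, limma adjusted p = 3.55e-08). Celf1 fell from 341 ± 14.4 to 278.3 ± 5.13 (-0.29) and its paralogue Celf5 from 99.3 ± 9.29 to 70.3 ± 11.02 (-0.50). Rbfox2, which binds GCAUG, rose from 554.3 ± 19.0 to 648.7 ± 25.1 (0.23, limma adjusted p = 5.55e-04), a call lost in limma without trend. Mbnl2, a muscleblind protein, rose from 517 ± 9.54 to 571.7 ± 22.1 (0.14), a call that did not hold without active replicate 2 (0.11), or without replicate 1 (0.15) or 3 (0.13) of the inactive line, or in limma without trend. A second, weaker Mbnl2 region 1630 bp from the start fell from 94.3 ± 5.86 to 75.3 ± 7.23 (-0.32, limma adjusted p = 0.0305). Khdrbs1 was at 559.7 ± 11.5 (active) against 567 ± 31.3 (inactive).

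The direction of change followed the chromosome that carries the gene. On the 6 chromosomes whose regions had a median log2 fold change above 0.1 (5, 6, 12, 13, 14 and 15), 22 of 34 promoters rose and 2 fell. On the other 13 chromosomes that hold genes of the set, 0 of 98 rose and 64 fell. In all gene promoters the same split gave 60.3% higher and 8.92% lower on the first and 7.31% higher and 47.9% lower on the other chromosomes. The split was chosen after the values were seen. All 11 promoters on chromosome 11, which carries Actg1, and all 8 on chromosome 19 fell, 8 of 10 on chromosome 5 and 5 of 6 on chromosome 12 rose. All gene promoters of these chromosomes had median log2 fold changes of -0.25, -0.26, 0.24 and 0.44, in that order. Chromosomes 9 and 18 had lower medians, -0.37 and -0.44. These chromosomes were also picked out after the values were seen, and called shares of all gene promoters per chromosome were not computed. Chromosome 6 was mixed, with a rise at Rbm28 and falls at Ddx47 (-0.61) and Snrpg.

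**Figure D3:**
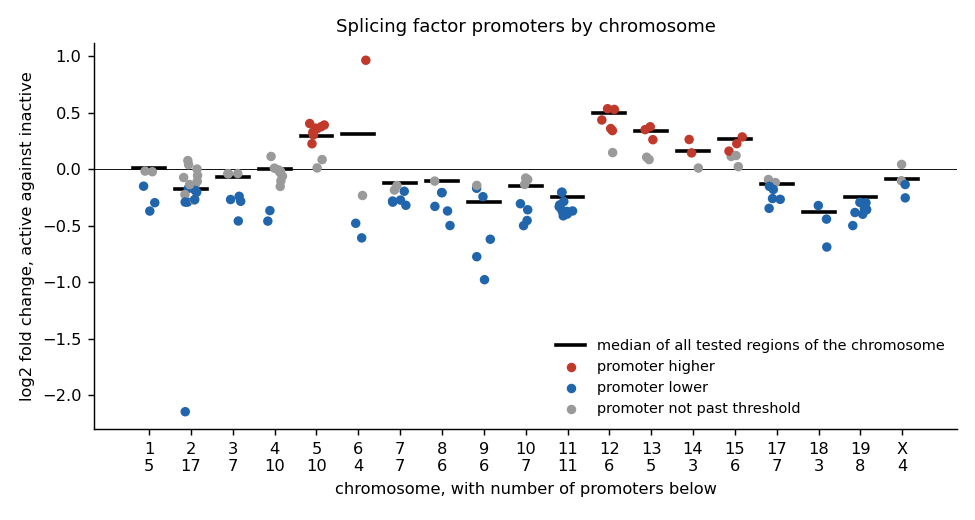
Log2 fold change (active against inactive) of each promoter by chromosome, with the number of promoters under the chromosome name and a black bar at the median of all tested regions of that chromosome. All 22 rises (red) lie on chromosomes 5, 6, 12, 13, 14 and 15, and on chromosomes 11, 18 and 19 every promoter fell (blue).

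The promoters also moved with their neighbourhood. Chromosome medians were not removed here, so shifts within chromosomes were not told apart from shifts of whole chromosomes. In windows of 10 Mb, 85 of the 88 called promoters (96.6%) had the sign of the median of the other regions in their window, against 86.3% of the called promoters of all genes. Across the 132 promoters the log2 fold change and the median of the other regions in the window had a Pearson correlation of 0.78 and a Spearman correlation of 0.80 (0.88 and 0.80 without Rbm43). This is a description over genes in 84 windows that share the same 6 libraries, and genes are not replicates. The 3 called promoters with the opposite sign were Hnrnpu, Rbm42 and Srsf11, which fell in windows with medians of 0.02, 0.01 and 0.06. The libraries of Rbm42 and Srsf11 overlapped between the lines. The call of Rbm42 was lost without active replicate 1 (-0.21) or inactive replicate 2 (-0.21), and that of Srsf11 without active replicate 1 (-0.15) or without replicate 1 (-0.17) or 3 (-0.19) of the inactive line and with quantile normalization (-0.21). Both were also lost in limma without trend.

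Centring subtracted the median log2 fold change of the window from the log2 values of the active libraries. After it, 24 of the 132 promoters were lower and 4 higher. That stood against 20.5% and 13.4% of all gene promoters (33.8% in either direction) and 22.4% and 27.6% of all regions (49.9%). Of the 88 original calls 19 were kept in the same direction, 69 were lost and 9 promoters were called only after centring. Rbm43 remained at -1.90 (limma adjusted p = 2.44e-09), Dhx36 at -0.41 (adjusted p = 3.22e-04), Hnrnpu at -0.39 (adjusted p = 2.37e-05), Snrpg at -0.38 (adjusted p = 2.75e-04), Sf3b3 at -0.42 and Snrpd1 at -0.29. Ptbp1 (-0.16), Hnrnph1 (-0.21), Sf3b1 (-0.25) and Ddx10 (-0.20) kept smaller falls. The second Hnrnpu region, at 1073 bp, was called lower after centring (-0.16, limma adjusted p = 0.0399). Among rises Ddx54 (0.16), Rbm19 (0.20) and Dhx37 (0.19) kept their call, all 3 in the same window of chromosome 5. The same median (0.20) was subtracted from all 3, so they are not separate checks. Whether only a part of this window was shifted was not tested.

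Other large changes went to the level of their surroundings. Rbm28 went from 0.96 to -0.15, Ddx6 from -0.77 to -0.13, Rbm7 from -0.62 to 0.02, Ddx24 from 0.54 to -0.01 and Sf3b6 from 0.53 to -0.0036, all without a call. Ddx1, a helicase of RNA export and repair, was at 0.15 before centring and at -0.49 after it (limma adjusted p = 0.0022), since the other regions of its window on chromosome 12 had a median of 0.64. Hnrnpf was likewise called lower only after centring (-0.23 and -0.54), and Dhx35 higher (0.08 and 0.23). These were picked out after their values were seen. By family, the falls called after centring, the 8 newly called ones included, were 1 among SR proteins, 3 among hnRNPs, 2 each among U snRNP proteins, branch point and 3′ splice site factors and Prpf, 5 each among Rbm and Ddx, 2 among Dhx and 1 each in the last 2 groups.

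**Figure D4:**
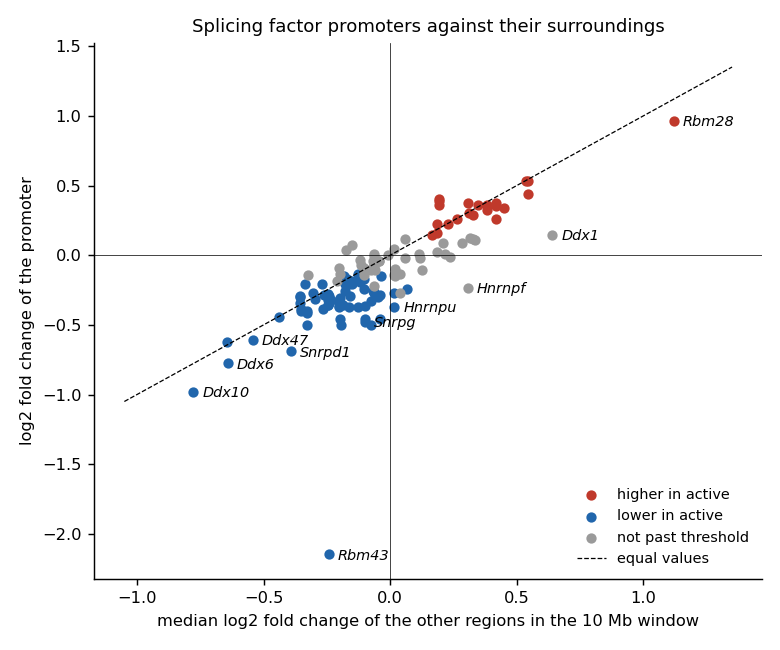
Log2 fold change of each of the 132 promoters (vertical axis) against the median log2 fold change of the other regions in its 10 Mb window (horizontal axis), with a dashed line where both are equal. Most points lie near the line, Rbm28 at 0.96 and Ddx10 at -0.98 included, and Rbm43 lies far below it at -2.15.

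Neighbouring genes of the set, with gaps of at most 150 kb, were also read in pairs. Both genes of a pair lie in the same 10 Mb window, so a shared direction is not an independent check. The share of such pairs over all genes was not computed. The promoters of Hnrnpd and Hnrnpdl lie 58632 bp apart on chromosome 5 and both rose (0.33 and 0.36). Ddx41 and Ddx46 on chromosome 13, 97618 bp apart, both rose (0.26 and 0.35). The paralogues Rbm4 and Rbm4b on chromosome 19 both fell (-0.30 and -0.38), as did Rbm12b1 and Rbm12b2 on chromosome 4 (-0.46 and -0.37). Reads of such close copies may be split between them. The call of Rbm12b1, whose libraries overlapped, was lost without active replicate 1 (-0.31) or without replicate 2 (-0.45) or 3 (-0.39) of the inactive line. In limma without trend the calls of Rbm12b1, Rbm4 and Ddx41 were lost. In the other 4 of 8 such pairs at least 1 promoter was not called. U2af1l4 did not pass (-0.14) and Rbm42 was lower (-0.27), Rbm5 did not pass (-0.14) and Rbm6 was lower (-0.24), and neither Hnrnpll (-0.09) nor Srsf7 (-0.12) passed. The call of Rbm6 was lost in limma without trend, as was that of Rbm42. The remaining pair is that of the helicase paralogues Ddx21 and Ddx50, 48051 bp apart on chromosome 10. Ddx21 fell from 230, 219 and 248 to 154, 189 and 166 normalised reads (log2 ratio -0.45, SE 0.09, limma adjusted p = 3.85e-05), while Ddx50 overlapped between the lines at 652.3 ± 56.9 and 695 ± 56.5 (-0.09, limma adjusted p = 0.186). The difference between both genes was not tested.

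The genes of the set had 27 further open regions, 16 of them at genes with a promoter region, and 12 were lower and 3 higher. Over all tested regions 29.2% were lower and 30.9% higher. The limit of 1000 bp lay between a second, weaker Rbm22 region centred 863 bp from the start (24.3 ± 6.35 against 32 ± 5) and a second Prpf4b region at 1004 bp (326 ± 5.57 against 319 ± 8.54). Just outside it Rbm25 at 1119 bp rose (log2 ratio 0.42) and Rbm17 at 1162 bp fell (-0.38). Cpsf6 fell at 3329 bp (-0.22) and Ptbp2 at 1375 bp did not pass (-0.16, limma adjusted p = 0.0725). Of the other genes with no region inside the limit, Hnrnpm (-0.26), Sf3b5 (-0.39), Snrpa1 (-0.38) and Snrpc (-0.38) were lower, and Dhx58 (0.03) and Mbnl3 (-0.02) did not pass.

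Some of the farther regions had larger changes. A region 4058 bp from the start of Ddx19b, a helicase of mRNA export, fell from 163.7 ± 8.33 to 57.7 ± 2.52 normalised reads (chromosome 8, 111754018 to 111754632, log2 ratio -1.49, SE 0.12, limma adjusted p = 6.37e-14), and centring left it at -1.41. The promoter of its neighbour and paralogue Ddx19a fell less, from 200.3 ± 10.02 to 159.3 ± 10.3 (-0.33). A weak region 2803 bp from the start of Ptbp3, a paralogue of Ptbp1, rose from 23 ± 5.57 to 59.7 ± 4.16 (log2 ratio 1.36, SE 0.20, limma adjusted p = 1.85e-07), while the Ptbp3 promoter itself was at 427.3 ± 33.7 (active) against 436 ± 11.3 (inactive). At Ddx52 a region at 3205 bp fell from 35 ± 3 to 16 ± 4.58 (-1.11), and at Ddx39a one at 1638 bp rose from 22.7 ± 2.52 to 35.3 ± 4.16 (0.62). These regions were singled out for their size.

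Other genes of nuclear RNA processing were counted in the same way. Of 70 listed genes that the symbol rule does not take, among them splicing kinases, Lsm and Gemin proteins and 3′ end factors, 54 had a promoter region. Of these 24 were lower and 8 higher, with a median log2 fold change of -0.17, where 37.7% of all gene promoters were lower and 21.2% higher. They ranged from -1.24 at Clk3, a kinase of SR proteins (343 against 145 normalised reads), to 0.78 at Luc7l2, a U1 snRNP factor (801.3 against 1378).

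The promoter windows of the set were also compared by sequence letters, with the first listed window of each gene and with genes that have an open promoter as the reference. The CRE core TGACGT occurred in 28 of 109 windows (25.7%) against 12.6%, the ETS letters CCGGAAG in 33.0% against 18.9%, and the ZBTB33 core TCTCGCG in 11.9% against 5.85%. CCAAT letters stood in 50.5% against 39.7%, while GGGCGG (67.9% against 67.3%), GCATGCG (8.26% against 7.11%), CACGTG (11.9% against 10.5%), AAGATGG (9.17% against 7.55%) and TATAAA (7.34% against 6.71%) were close. The AP-1 letters TGANTCA were in 2 windows (1.83% against 5.13%). By direction, the CRE core was in 20 of 54 windows of promoters that fell, 3 of 21 that rose and 5 of 34 that did not pass. The matching shares for CCAAT were 32, 7 and 16 windows. For CCGGAAG they were 14, 7 and 15 windows, and for GGGCGG 37, 17 and 20. Shares by direction over all gene promoters were not computed. These shares are descriptions with no test.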

How the data were processed

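ATAC-seq was made from NIH3T3 cells with a single lysis and transposition reaction and paired-end sequencing, per the labels' protocols. Trimmomatic 0.39, STAR 2.7.11a, Picard 3.1.1, featureCounts, DESeq2 1.36.0 and build mm39 are named in the submitters' processing notes. For the peak caller, the merging of regions and any Tn5 shift nothing is given in the sources used here. As read from the values, the authors deposited a score, namely the reads of a region after scaling by a library-wise size factor, rounded to whole numbers. No count model was therefore applied, and reads before scaling are estimates.

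The test was run in R 4.3.3 by limma 3.58.1 on log2(value + 1), using moderated variances with a trend and robust fitting and no covariate, over 51253 regions with a mean of at least 10. All 132 promoters passed this filter. Group and library number came from the sample titles. Named genes were, per family, up to 2 called rises and 2 called falls of largest size, the most accessible promoter, any 2-fold change and a list of core factors. One promoter that this rule takes is not reported here by name. Others are named where they are neighbours, exceptions or singled out. Genes, lists and rules were chosen with earlier results of these data known. The fit was tested on simulated data. Tables were handled with Python 3.11.15, pandas 2.3.3 and numpy 2.4.6, and figures drawn with matplotlib 3.10.9. Alternatives were another pseudocount and filters, quantile normalization, centring on windows of 10 Mb, array weights and a replicate block. Limma without trend and without robust fitting, each library left out and other promoter rules were also run.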

Additional observations from a re-analysis of the deposited data

How the results depend on the processing

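The numbers of promoters that fell (66) or rose (22) stayed within 1.5 times of these values under every alternative run except centring on 10 Mb windows, which gave 24 and 4 and moved the median log2 fold change from -0.17 to -0.065. Over all regions, requiring a mean of at least 50, which leaves fewer regions to test, gave 8402 higher and 9705 lower in place of 15827 and 14957. That filter also leaves out Rbm43. Without single libraries, 56 to 69 promoters fell and 19 to 21 rose, and 20 of the 88 calls were lost in at least 1 of these 6 fits. Limma without trend gave 44 and 15. With the replicate block 65 fell and 21 rose. Libraries of the same number did not deviate together (correlations of -0.016 to 0.0014). Deviations within groups of 3 libraries cannot exclude a pairing. Ddx17 was the named gene that lost its call with the replicate block. Centring changed the sign of called named promoters to a value with no call: Srsf5 (-0.10), Srsf9 (-0.0068), Hnrnpa0 (-0.039), Hnrnpdl (-0.016), Sf3b6 (-0.0036), Sf1 (0.061), Prpf40b (-0.039), Rbm28 (-0.15), Rbm7 (0.023), Ddx24 (-0.0077), Dhx15 (-0.0015), Cpsf2 (-0.11), Mbnl2 (-0.015) and Ddx17 (-0.025). This follows from its construction, which removes the shift of a window. Of 88 calls, 57 held under every alternative fit that tested them other than centring, and 17 with centring too. Rbm43 is among both, and was not tested under the filter of 50. A region within 250 bp of the start site, found for 99 genes, gave 46 falls and 19 rises. A lower depth of the active libraries, as estimated, would limit weak regions most, such as Rbm43 and those at Ddx52, Ddx39a and Ptbp3.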
